A study of Mus musculus with 6 samples.

Results

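The genes described here are the cytoplasmic ribosomal proteins and the translation factors on a 2-colour muscle cDNA array, compared between a MyoD-silenced C2C12 clone and control C2C12 cells at 3 times of myogenic differentiation. Members were taken by symbol: RPL or RPS followed by a digit, without the RPS6K kinases and without pseudogenes, RPLP0, RPLP1, RPLP2 and RPSA, and all symbols that begin with EEF1, EEF2 or EIF. The rule found 83 of the 1521 named genes on the array, which has 2466 features in all when the 945 probes without a gene name are counted. There were 33 large-subunit proteins, 21 small-subunit proteins and 28 factors, of which 5 act in elongation and 23 carry an initiation factor symbol. RPS19BP1, which binds RPS19 and is part of neither subunit, also met the rule and is kept apart from the 3 classes. Symbols are those of the human array, and the RNA is from mouse cells.

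C2C12 is a mouse myoblast line of C3H muscle origin that fuses into myotubes when serum is withdrawn. The silenced cells are a single clone, MyoD(-)cl.A8, which carries a MyoD transcript cloned in antisense orientation in a mammalian expression vector and was picked among drug-resistant clones. The sources used here do not say what vector, if any, the control cells carried. Clone and control were each grown in serum-rich medium, moved to differentiation medium with horse serum, and collected after 1, 3 and 6 days. Each day has 2 arrays of the same pair of cell types: in replicate A the clone is labelled with Cy5, and in replicate B with Cy3. A day is therefore 1 replicate, and the number of arrays (6, over 3 days) limits the precision of every value.

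Values are the authors' scores, whose scale is unknown. They are printed in units, centred on each array's median. A positive score is taken as higher in the clone, a likely direction, because the clone is marked as test and the control cells as reference in the labels. The score compares 2 samples, so it carries no level of expression, and fewer cells of a type cannot be told apart from less RNA per cell. The score of MYOD1, the silenced gene, was 0.41 and -0.36 on the arrays of day 1, 1.11 and -1.03 on those of day 3, and 0.50 and 0.26 on those of day 6 (mean 0.15 ± 0.20 SD, n = 3 days). The MYOD1 probe therefore did not read lower in the clone labelled as silenced, and whether it also reads the antisense construct was not tested. Of the fixed marker lists, 7 of 9 skeletal muscle genes, 3 of 7 fibroblast and smooth muscle genes and 2 of 4 adipocyte genes were measured. None of them passed the test of a change shared by the 3 days (limma, adjusted p from 0.741 for DES and TAGLN upward), and their mean scores ran from -0.87 for TAGLN to 0.90 for DES. Some markers stood higher on day 6 than on day 1. Their means on days 1 and 6 were -1.38 and 1.70 for ACTA1 and -0.54 and 1.26 for TNNT1. They were 1.11 and 1.57 for DES, and -0.73 and 1.36 for CNN1. The 2 arrays of day 6 differed for ACTA1 (-0.58 and 3.97) and DES (0.14 and 3.01). Markers lower on day 6 were TNNI1 (0.18 and -0.22), VIM (0.73 and 0.49), FABP4 (0.36 and -0.76) and SCD (0.88 and 0.80). The other measured markers were higher on day 6. The part of these differences in the day 6 scores of the translation genes was not tested.

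Ribosomal proteins assemble with ribosomal RNA into the small subunit, which reads the messenger RNA, and the large subunit, which joins amino acids. Initiation factors bring the messenger RNA, the initiator tRNA and the subunits together, and elongation factors deliver aminoacyl-tRNAs and move the ribosome along. In vertebrates the messenger RNAs of ribosomal proteins and of many elongation factors begin with a C followed by a run of pyrimidines, known as a TOP sequence, through which the mTOR pathway and the RNA-binding protein LARP1 adjust their translation together. Growing myoblasts make ribosomes at a high rate, and this rate is known to change as the cells leave the cell cycle and differentiate.

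The start sites of the mouse genes are shown because the TOP sequence lies there. RefSeq promoters (GRCm38.p6) were matched by symbol for 63 of the 83 members. A run was searched for on the transcript strand alone, as a C followed by at least 4 letters that are each C or T, within 15 bases on either side of the start site. Such a run was present in 28 of 42 ribosomal protein genes (66.7%), in 7 of 20 factor genes (35.0%) and in 10885 of 27025 mouse genes of the table (40.3%). The listed start base was itself a C followed by 4 such letters, whether or not the run reached further upstream, in 9 of the 42 (21.4%), in 1 of the 20 (5%) and in 3.01% of all genes. The windows below belong to members whose scores are described further on. The first 8 are from the 9 matched members that stood above 0 on day 1 and below 0 on day 6. The other of the 9, EIF5A, has several listed starts, and no window of these holds a run. RPL28 and RPS10 follow from outside that group, so the windows shown give no share of genes with a run. Each is written along the transcript, 15 bases before and 15 bases from the start site, with the longest run in capitals.
RPL27A, chr7:109519180-109519209, plus strand: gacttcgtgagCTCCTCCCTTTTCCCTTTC
RPL35, chr2:39005117-39005146, minus strand: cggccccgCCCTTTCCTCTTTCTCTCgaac
RPL38, chr11:114668565-114668594, plus strand: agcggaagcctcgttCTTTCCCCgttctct
RPS12, chr10:23787195-23787224, minus strand: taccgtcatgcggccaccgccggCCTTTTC
RPS21, chr2:180257364-180257393, plus strand: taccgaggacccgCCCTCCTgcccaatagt
EIF3B, chr5:140419290-140419319, plus strand: ctagcggcgcgcggtgaCTTCTgggagtcg
RPL11, chr4:136053379-136053408, minus strand: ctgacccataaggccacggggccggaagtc
EEF1B2, chr1:63176816-63176845, plus strand: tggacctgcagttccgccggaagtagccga
RPL28, chr7:4792950-4792979, plus strand: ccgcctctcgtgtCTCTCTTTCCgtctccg
RPS10, chr17:27635230-27635259, minus strand: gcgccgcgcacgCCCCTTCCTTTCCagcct

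The longest of the 8 runs in these 10 windows, in RPL27A, RPL35 and RPS10, lie across the start site, those of RPS12 and EIF3B lie downstream of it, and RPL11 and EEF1B2 have none. RPS21 has a second listed start, whose window holds no run. No match says only that these letters are not in this window.

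The class medians lay between 0.00 and 0.28 on days 1 and 3 and below 0 on day 6, furthest below in the factors and least in the small subunit. The median score of the large subunit was 0.14 on day 1, 0.00 on day 3 and -0.18 on day 6. The small subunit had medians of 0.18, 0.04 and -0.13 in the same order, and the factors had medians of 0.03, 0.28 and -0.46. Over all 2466 features the day medians lay between 0.00 and 0.02. With the median of 10 neighbouring probes subtracted, the class medians of day 6 were -0.52 (large subunit), -0.21 (small subunit) and -0.53 (factors). Of the 83 members, 49 had a day mean above 0 on day 1 (59.0%), 46 on day 3 (55.4%) and 31 on day 6 (37.3%), against 50.9%, 50.0% and 50.2% of all features. The lower share on day 6 stood on each array of that day, with 31 members above 0 on replicate A and 32 on replicate B (38.6%). On the single arrays A and B of day 6 the medians were -0.66 and -0.60 for the large subunit, -0.25 and 0.05 for the small subunit, and -0.55 and -0.51 for the factors.

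**Figure D1:**
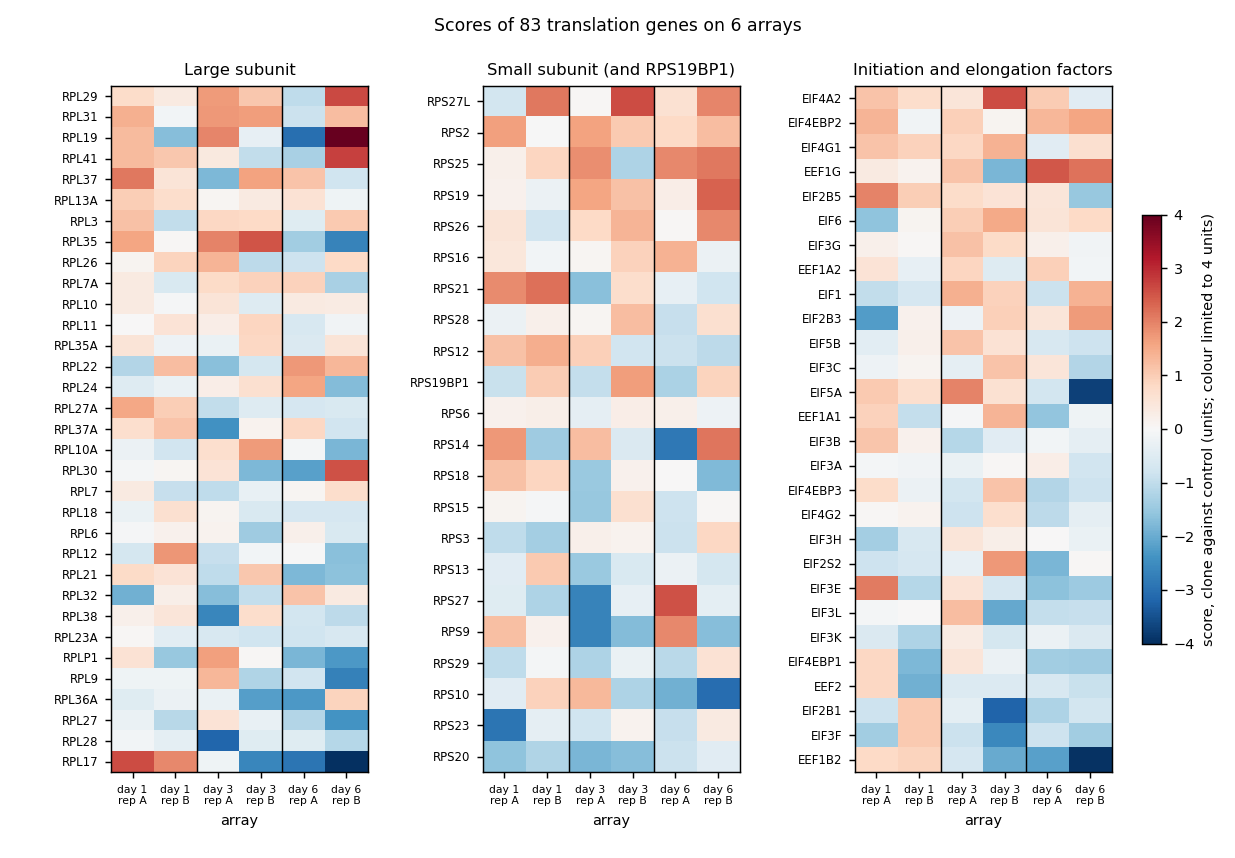
Scores of the 83 genes (rows, by class, ordered by mean over days) on the 6 arrays (columns); red is higher and blue lower in the clone, and colours stop at 4 units. Rows of a single colour are few: RPS20 and RPL28 are blue on all 6 arrays, and RPL17 turns from red on day 1 to dark blue on day 6.

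Averaged over the 3 days the classes did not stand apart from 0 or from each other by more than the spread of their day medians. The median of the members' means was -0.07 for the large subunit (14 above 0 and 19 below), 0.03 for the small subunit (11 above and 10 below) and -0.10 for the factors (12 above and 16 below). The SD of the 3 day medians was 0.16 for each subunit and 0.38 for the factors. The score was lower on day 6 than on day 1 in 24 of 33 large-subunit proteins (median difference -0.52), in 10 of 21 small-subunit proteins (0.21) and in 20 of 28 factors (-0.63), beside 49.6% of all features (0.01). After subtraction of the neighbouring probes, the counts were 24, 10 and 16 in the same order. These are counts over genes of the same 6 arrays, not over replicates, and no test of the classes was made.

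**Figure D2:**
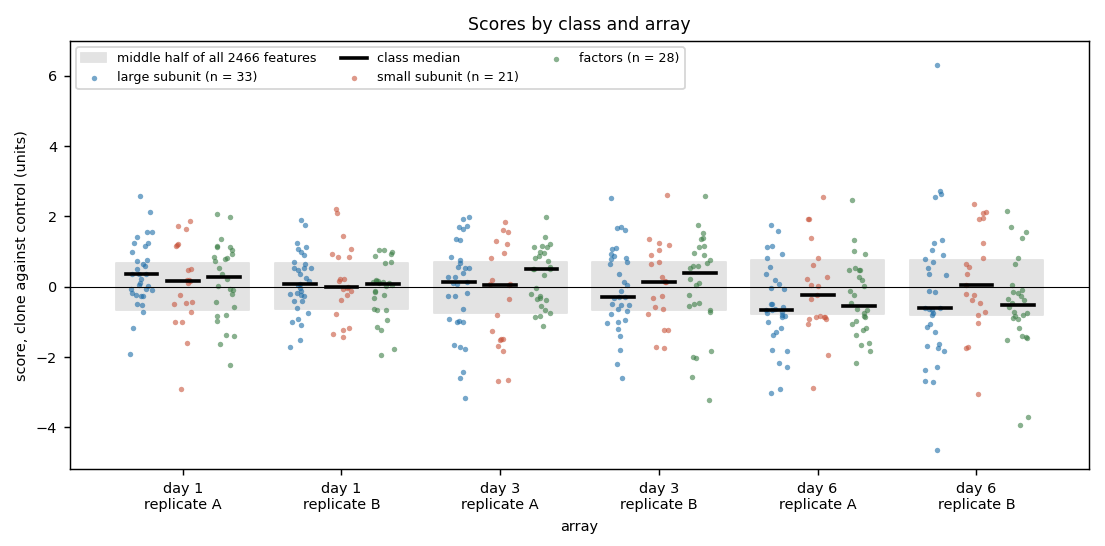
Scores of the members (points) by class on each array, with the class median (black bar) and the central range of all 2466 features, from the lower to the upper quartile (grey). The large-subunit and factor medians are below 0 on both arrays of day 6, while the small-subunit median lies between -0.25 and 0.16 on the 6 arrays.

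The 2 dye orientations of a day agreed weakly. Over the 83 members the scores of replicates A and B correlated with r = 0.09 on day 1, 0.15 on day 3 and 0.09 on day 6, against 0.21, 0.16 and 0.21 over all features. On day 6 the correlation was 0.56 over the 28 factors, -0.13 over the 33 large-subunit proteins and 0.05 over the 21 small-subunit proteins. These correlations are across genes that share arrays and are given as a description of reproducibility. Single arrays are therefore printed for the members that follow.

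No member passed the test of a change shared by the 3 days, in which limma was fitted to the day means of all features and p-values were adjusted over all of them. Over the array 0.365% of features passed, 9 in all. The lowest adjusted p among members was 0.399, for RPS20. At an unadjusted p under 0.05, 4 members were counted (4.82%), namely RPS20, RPS27L, RPS2 and EIF3F, beside 6.65% of all features. The members did not exceed the background in either count. The day fits have as error the spread between the 2 dye orientations and nothing else. They called no member on day 1 (0.243% of features), none on day 3 (0.324%) and only RPL17 on day 6 (0.284%). At an unadjusted p under 0.05 the day fits counted 5 members on day 1, 8 on day 3 and 13 on day 6 (15.7%), beside 6.16%, 9.57% and 11.1% of all features.

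RPL17, a large-subunit protein that lines the tunnel through which the new chain leaves the ribosome, was the only member called, and its score went from above to below 0. It read 2.60 and 1.91 on replicates A and B of day 1, -0.18 and -2.61 on day 3, and -2.92 and -4.66 on day 6. Both arrays of day 6 lay below all other arrays, and both arrays of day 1 above them. The day 6 mean of -3.79 ± 0.73 (SE from the limma fit to all 6 arrays) passed that fit at an adjusted p of 0.0401. The difference of day 6 from day 1 was -6.04 ± 1.03 (SE), with a limma adjusted p of 0.0157, and the 4 differences between single arrays ran from -7.25 to -4.83. In that contrast 0.365% of features passed, 9 of 2466, and RPL17 was the only member. At an unadjusted p under 0.05 it counted 9 members (10.8%), beside 8.27% of all features. The contrasts of day 3 with day 1 and of day 6 with day 3 called no member, beside 0.162% and 0.0406% of features. Since the days go in opposite directions, the mean over days was -0.98 ± 3.04 (SD, n = 3), with a shared-change adjusted p of 0.903 by limma.

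RPL17 rests on 1 probe printed in 2 spots, and these are close to each other on day 6. They read -2.92 and -3.05 on replicate A of day 6 and -4.51 and -4.77 on replicate B, but 4.82 and 0.38 on replicate A of day 1. The day 6 call was lost with a term for dye orientation as a replicate block (limma adjusted p = 0.0754), after scaling the arrays to a common spread (0.0984), without either array of day 1 (0.238) or day 3 (0.0599), and without replicate B of day 6 (0.369). The contrast of day 6 with day 1 kept its call with the block (0.0254) and lost it without replicate A (0.490) or B (0.202) of day 1 or replicate B of day 6 (0.142), with estimates between -6.38 and -5.17. With only the day 3 and day 6 means, RPL17 passed the shared-change fit at -2.59 (adjusted p = 0.00708), as did EEF1B2 at -2.20 (0.0353).

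**Figure D3:**
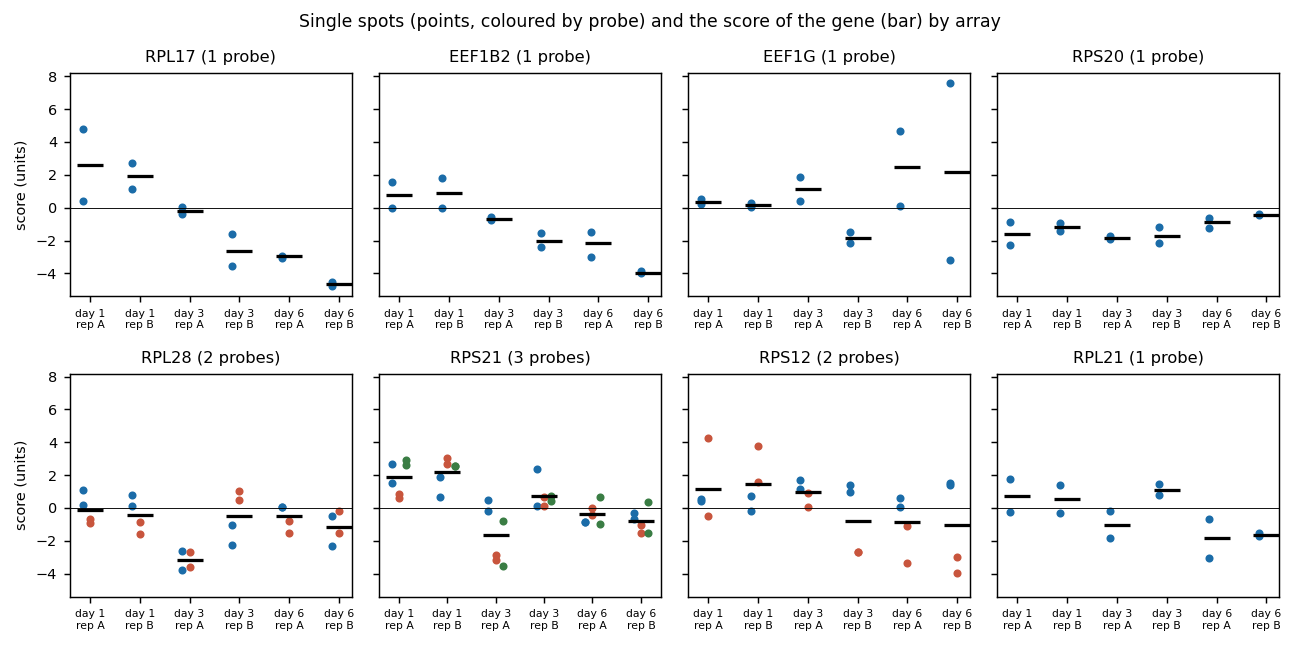
Single spots (points, as deposited, coloured by probe) and the centred score of the gene (black bar) on the 6 arrays for 8 members. RPL17, EEF1B2 and RPL21 have bars above 0 on day 1 and below 0 on day 6, and the 2 spots of EEF1G lie far apart on day 6.

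Among the elongation factors, EEF1B2 and EEF1G stood on opposite sides of 0 on day 6; both are subunits of the complex that recharges EEF1A with GTP. EEF1B2, the exchange factor itself, scored 0.79 and 0.88 on day 1, -0.67 and -2.01 on day 3, and -2.17 and -3.95 on day 6. All 4 arrays of days 3 and 6 lay below both arrays of day 1, with differences of day 6 from day 1 between -4.83 and -2.96. The difference of day 6 from day 1, -3.89 ± 0.96 (SE), did not pass limma over all features (adjusted p = 0.165). EEF1G, the scaffold subunit, scored 0.37 and 0.14 on day 1, 1.13 and -1.83 on day 3, and 2.47 and 2.17 on day 6. Its day 6 mean of 2.32 did not pass the limma day fit (adjusted p = 0.237). The spots behind that mean disagreed: they read 4.67 and 0.13 on replicate A and 7.57 and -3.20 on replicate B.

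These were the members at least 2 units from 0 on both arrays of a day. On day 6, EEF1G was the 1 member higher by that rule (0.689% of features), and RPL17 and EEF1B2 were the 2 members lower (1.14% of features). On days 1 and 3 no member reached 2 units on both arrays in either direction, beside 0.527% higher and 0.284% lower of all features on day 1 and 0.446% and 0.811% on day 3. With the median of 10 neighbouring probes subtracted, 1 member, RPL17, was left on day 6.

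Lower thresholds counted more members, and more of them lower than higher on day 6. At 1.5 units on both arrays, 2 members were higher and none lower on day 1 (0.933% of features in each direction), and 2 were higher and 2 lower on day 3 (1.38% and 1.82%). On day 6, 2 were higher and 5 lower (2.11% and 2.47%). At 1 unit, 4 were higher and 2 lower on day 1 (3.28% and 3.89%), and 5 were higher and 2 lower on day 3 (4.06% and 4.22%). On day 6, 4 were higher (5.35%) and 9 were lower (5.52%), so that 10.8% of the members were at least 1 unit lower. These 9 were RPL17, RPL21, RPL27, RPL35, RPLP1, RPS10, EEF1B2, EIF3E and EIF4EBP1, listed after their values were seen.

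EEF1A1 and EEF1A2 carry aminoacyl-tRNAs to the ribosome, EEF1A2 being the form that replaces EEF1A1 in mature muscle. EEF1A1 had a mean of -0.08 ± 0.78 (SD, n = 3 days), and its 2 probes had means of opposite sign, -0.34 and 0.18. EEF1A2 had a mean of 0.24 ± 0.16 and was positive in each replicate A and negative in each replicate B (0.54 and -0.32 on day 1, 0.86 and -0.50 on day 3, 0.94 and -0.10 on day 6). Neither isoform was distinguishable from 0. EEF2, which moves the ribosome along the messenger RNA, had a mean of -0.62 ± 0.13, with 5 of 6 arrays below 0 and the other at 0.82. Its shared-change adjusted p was 0.887 by limma.

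Between day 1 and day 6, large downward differences outnumbered upward ones among the members. A set of 5 members had all 4 differences between a day 6 and a day 1 array at least 2 units downward, against 1.22% of all features: RPL17, EEF1B2, RPL21, RPS12 and RPS21. No member had all 4 at least 2 units upward, against 0.608% of features. At 1.5 units, 6 members were downward (2.47% of features) and 1 upward (1.87%), and at 1 unit 9 were downward (5.15%) and 2 upward (4.3%). RPL21, a large-subunit protein, scored 0.75 and 0.55 on day 1, -1.02 and 1.09 on day 3, and -1.80 and -1.64 on day 6. RPS21, a small-subunit protein, scored 1.88 and 2.22 on day 1, -1.67 and 0.71 on day 3, and -0.34 and -0.79 on day 6. For both, the rule of the set itself keeps day 1 and day 6 apart, and day 3 lay on either side of 0. The 2 spots of RPL21 had opposite signs on both arrays of day 1 (1.77 and -0.25 on replicate A, -0.28 and 1.40 on replicate B). On day 6 its spots were all below 0.

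RPS12, a protein of the small subunit's head region, scored 1.17 and 1.45 on day 1, 0.95 and -0.78 on day 3, and -0.86 and -1.04 on day 6. Its 2 probes disagreed. Fitted as a feature of its own, the probe at spots 3367 and 3368 passed the contrast of day 6 with day 1 at -5.09 (limma adjusted p = 0.0381), while the probe at spot 171 read 0.35 and 1.44 on the arrays of day 6. The limma adjusted p of the contrast was 0.554 for RPL21, 0.506 for RPS21 and 0.569 for RPS12, so that none of these 3 passed at the level of the gene.

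With no threshold of size, 12 members were above 0 on both arrays of day 1 and below 0 on both arrays of day 6 (14.5%), beside 7.95% of all features, and no member did the reverse, beside 7.66%. They were named after their values were seen and are RPL11, RPL17, RPL21, RPL27A, RPL35, RPL38, RPS12, RPS21, EEF1B2, EIF3B, EIF4G2 and EIF5A. The class counts were 6 of 33 large-subunit proteins, 2 of 21 small-subunit proteins and 4 of 28 factors. RPL27A, RPL35 and EIF5A, a factor that keeps the ribosome moving through proline stretches, had differences of day 6 from day 1 of -1.91, -2.83 and -3.09 (limma adjusted p = 0.588, 0.470 and 0.477). Of the 9 among the 12 that were matched to a start site, 6 had a pyrimidine run in the window, namely 5 of 6 ribosomal proteins and 1 of 3 factors, beside 55.6% of all matched members. With neighbouring probes subtracted, 13 members were above 0 on day 1 and below on day 6 and 4 were the reverse, beside 200 and 206 of the 2466 features. The share of members lower on day 6 than on day 1 was then 60.2% instead of 66.3%.

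**Figure D4:**
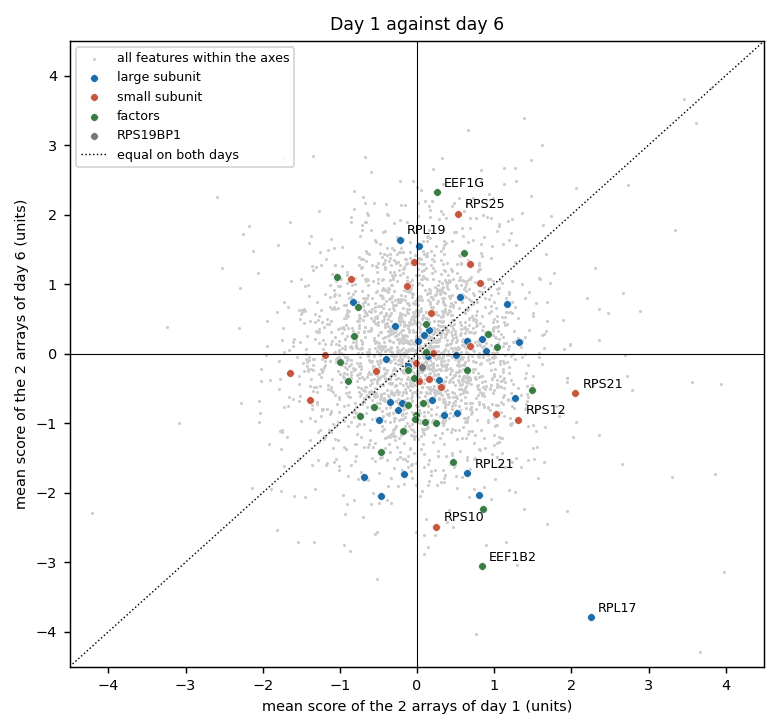
Mean score on day 1 (horizontal) against day 6 (vertical), in units, for the members (coloured by class) and all features within the axes (grey). The lower right field, above 0 on day 1 and below 0 on day 6, holds RPL17 at 2.25 and -3.79, and EEF1G lies highest among the members on day 6 at 2.32.

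In the large subunit, RPL28 was the only protein below 0 on 6 of 6 arrays. Its scores were -0.10 and -0.40 on day 1, -3.16 and -0.48 on day 3, and -0.48 and -1.14 on day 6, so that 1 array of day 3 stood far below the rest. Its mean was -0.96 ± 0.80 (SD, n = 3 days), with a shared-change adjusted p of 0.731 by limma, and its 2 probes had means of -1.06 and -0.86. RPL27 followed with a mean of -0.78 ± 0.96. RPL29 had the highest mean of the class, 0.92 ± 0.43, with day means of 0.55, 1.39 and 0.81 (limma adjusted p = 0.731). Its 2 arrays of day 6, at -1.01 and 2.63, were on either side of 0. RPL31 had a mean of 0.85 ± 0.78, which went to 0.32 with neighbouring probes subtracted.

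RPL19, which forms a bridge between the subunits, had the third highest mean of the class, 0.74 ± 0.93, on arrays that did not agree. Its scores were 1.26 and -1.71 on day 1, 1.94 and -0.33 on day 3, and -3.03 and 6.30 on day 6. On day 6 its duplicate spots agreed on each array, at -3.08 and -3.11 on replicate A and 6.81 and 5.82 on replicate B, so that the dye orientations and not the spots were opposed. RPL30 (-2.18 and 2.54) and RPS14 (-2.87 and 2.13) also had opposite signs on day 6, but their spots on replicate B disagreed. The spots read 7.63 and -2.51 for RPL30 and 7.40 and -3.11 for RPS14. RPL19, RPL30 and RPS14 were 3 of the 9 features of the array that were at least 2 units below 0 on replicate A and above 0 on replicate B (0.365%). All 3 are printed among the first 360 spots, where 39 of the 110 member probes lie. There, the median difference of replicate A from the day 6 mean was -0.35 units for member probes and -0.32 for the other 141 probes, and it was 0.01 for member probes elsewhere. On replicates A and B of day 6 the member probes among the first 360 spots had medians of -0.72 and 0.55. Elsewhere they had medians of -0.55 and -0.44. The other probes had medians of -0.34 and 0.72 among the first 360 spots, and of -0.04 and 0.02 elsewhere. The part of position or dye in these scores and in the class medians was not tested.

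**Figure D5:**
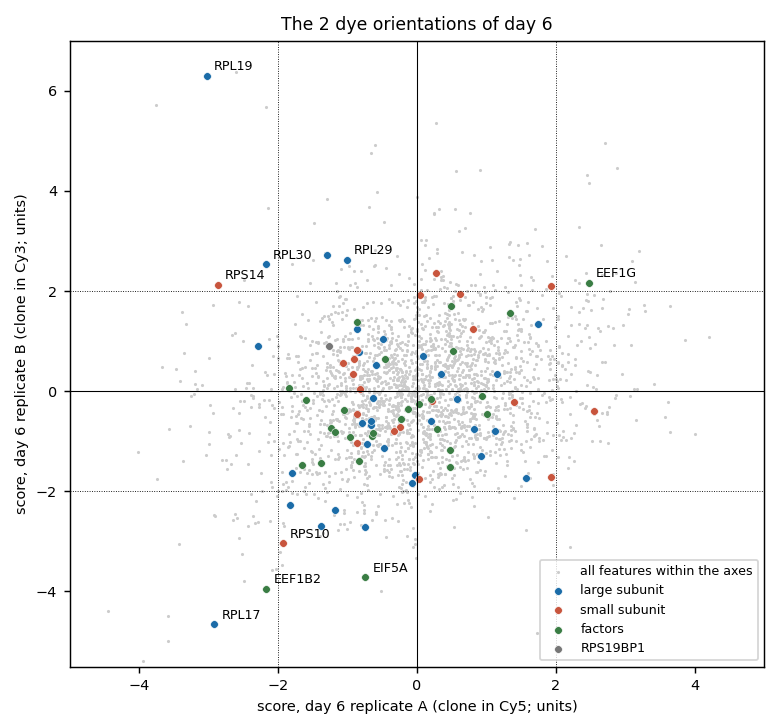
Score on day 6 in replicate A, with the clone in Cy5 (horizontal), against replicate B, with the clone in Cy3 (vertical), in units, with dotted lines at 2 units from 0 on the sides referred to. RPL17 and EEF1B2 lie at the lower left on both arrays, EEF1G at the upper right, and RPL19, RPL30 and RPS14 at the upper left, where the orientations disagree.

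The stalk of the large subunit, where the GTP-using factors dock, was represented by RPLP1 alone. RPLP1 scored 0.58 and -1.51 on day 1, 1.63 and 0.06 on day 3, and -1.82 and -2.28 on day 6. Its day 6 mean of -2.05 did not pass the day fit (limma adjusted p = 0.246), and both of its probes read below 0 on both arrays of that day. The other 25 large-subunit proteins had means over days between -0.76 for RPL36A and 0.53 for RPL41, with 11 above 0 and 14 below.

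In the small subunit, RPS20, a protein of the head, was the lowest member of all and the other one below 0 on 6 of 6 arrays. It scored -1.60 and -1.19 on day 1, -1.84 and -1.71 on day 3, and -0.87 and -0.46 on day 6. Its mean was -1.28 ± 0.56 (SD, n = 3 days), and all 3 days lay on the same side. Its limma adjusted p of 0.399 did not pass. The median of the probes around RPS20 was also below 0 on both arrays of day 6 (-1.33 on replicate B), and with it subtracted its scores of that day were 0.08 and 0.91. The 2 members below 0 on 6 of 6 arrays stand beside 2.88% of all features, and no member was above 0 on all 6, beside 2.64%.

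RPS27L, a p53-induced paralogue of RPS27, had the highest mean of all members, 1.10 ± 0.36, with a limma adjusted p of 0.580. Its replicates B, at 2.10, 2.61 and 1.95, lay above its replicates A, at -0.73, 0.05 and 0.62, on each day. RPS2 scored 1.64 and -0.02 on day 1, 1.61 and 1.05 on day 3, and 0.81 and 1.23 on day 6 (mean 1.05 ± 0.26, limma adjusted p = 0.626), and 5 of its 6 arrays were above 0. RPS25, which many viral internal entry sites require, had a mean of 0.95 ± 0.93 and day 6 scores of 1.92 and 2.11. These 3 had the highest means of the subunit, and none passed.

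RPS10, a protein that is marked with ubiquitin when ribosomes stall, scored -0.44 and 0.93 on day 1, 1.31 and -1.23 on day 3, and -1.93 and -3.04 on day 6. Only day 6 had both arrays on the same side, and its mean of -2.49 did not pass the day fit (limma adjusted p = 0.194). RPS23, part of the decoding centre, had a mean of -0.75 ± 0.78, of which a single array, -2.92 on day 1, was the lowest value. The other 13 small-subunit proteins had means between -0.52 for RPS29 and 0.88 for RPS19, with 6 above 0 and 7 below. RPS19BP1 had a mean of 0.08.

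The initiation factor eIF3, the large scaffold that holds the small subunit ready for the messenger RNA, was represented by 9 subunits. Of these, 7 had a mean below 0, beside 45 of the 83 members and 1225 of the 2466 features. On day 6, 8 were below 0, beside 52 of the members and 1229 of the features. Their day 6 means lay between -1.56 for EIF3E and 0.02 for EIF3G. EIF3F had the lowest mean, -1.01 ± 0.77 (SD, n = 3 days), from scores of -1.40 and 1.03 on day 1, -0.87 and -2.57 on day 3, and -0.84 and -1.39 on day 6. Thus 5 of its 6 arrays were below 0, and its limma adjusted p was 0.695. EIF3K (mean -0.49 ± 0.36) and EIF3L (-0.46 ± 0.46) were below 0 on each day, as was EIF3A (-0.15 ± 0.07), whereas EIF3G was above 0 on each day (0.37 ± 0.52). EIF3B (-0.13), EIF3C (0.00), EIF3E (-0.38) and EIF3H (-0.25) were on different sides on different days. The 3 probes of EIF3G had means between -0.27 and 1.00, and EIF3A had a mean of 0.21 with neighbouring probes subtracted. No eIF3 subunit passed a test.

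Of eIF2, which brings the initiator tRNA, only the beta subunit EIF2S2 was measured, with a mean of -0.31 ± 0.88. Of its exchange factor eIF2B, through which stress signals slow initiation, EIF2B1 had a mean of -0.89 ± 0.96, with 1 array of day 3 at -3.21, the catalytic subunit EIF2B5 a mean of 0.54, and EIF2B3 a mean of 0.15. EIF2B3, named after its values were seen, had the largest upward difference of day 6 from day 1 among the members, 2.13, from day means of -1.03 and 1.10, but its arrays of day 1 read -2.23 and 0.16.

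The cap-binding complex eIF4F was represented by the helicase EIF4A2, the scaffold EIF4G1 and its relative EIF4G2. EIF4A2 scored 1.13 and 0.71 on day 1, 0.49 and 2.60 on day 3, and 1.01 and -0.45 on day 6, for a mean of 0.91 ± 0.63 (limma adjusted p = 0.731). EIF4G1 scored 1.15 and 0.93 on day 1, 0.82 and 1.39 on day 3, and -0.47 and 0.65 on day 6, for a mean of 0.75 ± 0.57 (limma adjusted p = 0.812). Each was above 0 on 5 of 6 arrays, with the exception on day 6. EIF4G2, which initiates without the cap-binding protein, had a mean of -0.24 ± 0.42.

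The 3 repressors that bind the cap-binding protein until mTOR phosphorylates them did not share a direction. EIF4EBP1 had a mean of -0.59 ± 0.78, with -1.38 and -1.44 on day 6. EIF4EBP2 had a mean of 0.87 ± 0.51, with 1.33 and 1.57 on day 6. EIF4EBP3 had a mean of -0.18 ± 0.70. None of the 3 passed (limma adjusted p from 0.751 to 0.983), and the differences between the 3 genes were not tested. The 6 factors not named by the rule had means between -0.03 for EIF5A and 0.54 for EIF2B5.

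Other genes of the translation machinery gave no call in the shared change. Of the 18 mitochondrial ribosomal proteins, 17 had a mean above 0 and 1 below, with a median of 0.33. Beside these, 38 of the 83 cytoplasmic members (45.8%, median -0.07) and 50.3% of all features (median 0.00) were above 0. Of the 18, 1 was above 0 on 6 of 6 arrays, beside 2.64% of all features. The highest was MRPL20 at 0.91 ± 0.31 and the lowest MRPS24 at -0.61 ± 1.13, and on single days 13, 11 and 12 of the 18 were above 0. With neighbouring probes subtracted, 16 of the 18 means remained above 0. These genes make the ribosome inside mitochondria, which is built apart from the cytoplasmic one.

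FAU, the small-subunit protein made as a fusion, scored -0.29 ± 1.01. Of 4 ribosome biogenesis genes, 3 were above 0, from NHP2 at -0.12 to POLR1D at 0.49. The 3 aminoacyl-tRNA synthetases ran from SARS1 at -0.97 to QARS1 at 0.87. A list of 5 further genes, GSPT1, PABPC4, NACA, TUFM and TPT1, ran from GSPT1 at -0.58 to TPT1 at 0.13. The 4 regulators of translation ran from TSC1 at -0.27 to LARP1 at 0.47. None of these genes passed limma in the shared change.

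The error behind a single score is large beside most of these differences. The duplicate spots of the 110 member probes correlated with r between 0.22 and 0.67 by array, and their median absolute difference was between 0.68 and 1.21 units. Of the 19 members with several probes, 10 had probes whose means lay on opposite sides of 0. The means of probes for the same gene differed by 0.60 units at the median and by 1.96 units at most, for RPL41. The SD of a member over the 3 days was 0.73 at the median, beside 0.66 for all features.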

How the data were processed

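RNA of clone and control was compared on 6 two-colour arrays (3 days, dyes exchanged). The authors' deposited values, 1 score per spot, have no stated unit, background correction or normalization. Single spots reach 21.6, beyond a log2 ratio of scanner signals, so they are treated as a score. The sources used here do not state which channel is the numerator.

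From the deposited scores, the 2 spots of each probe were averaged, then the probes of each gene (5376 spots, 2688 probes, 2466 features), and each array was centred on its median. Gene symbols came from the platform annotation, which can be old. limma 3.58.1 in R 4.3.3 was fitted over all 2466 features with Benjamini-Hochberg adjustment and a threshold of 0.05. The shared change was fitted on the 3 day means, and the days and their difference on the 6 arrays. The error of the day fits holds only the spread between the 2 dye orientations of a day. The code of the fits was also run on simulated scores with planted changes and independent features. For the shared change the simulated errors of the 2 arrays of a day cancelled. No result above rests on that run. Tables and figures used Python 3.11.15, pandas 2.3.3 and matplotlib 3.10.9.

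Named genes are members past a threshold, at least 2 units from 0 on both arrays of a day, or of the same sign on 6 of 6 arrays, the 3 highest and 3 lowest means of each class, and the stalk, EEF1, eIF2, eIF3 and eIF4F members. Members and lists were chosen with earlier results of these data known. Alternatives were the values as deposited, scaling, neighbouring probes subtracted, other summaries of probes, a replicate block, other unit thresholds, and arrays or days left out.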

Additional observations from a re-analysis of the deposited data

Results flagged for a closer look

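Among the 38 members named by rule, scores on opposite sides of 0 on different days were singled out. The difference of day 6 from day 1 in RPL17, -6.04 units, was the only difference that passed the test of the difference itself (limma adjusted p = 0.0157). RPL17 also differed by -3.65 units between day 1 and day 3, where both arrays of day 1 were above 0 and both of day 3 below, and that difference did not pass limma.

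In the following of these 38 members both arrays of a day were on one side of 0 and both arrays of the other day on the opposite side, but limma did not call the difference. From day 1 to day 6 these were EEF1B2 at -3.89, RPS21 at -2.61, RPL21 at -2.37, RPS12 at -2.26, EIF3B at -0.88 and EIF4G2 at -0.79. From day 1 to day 3 these were EEF1B2 at -2.18, EIF3B at -1.44 and EIF3H at 1.36. From day 3 to day 6 RPLP1 differed by -2.90. These 10 differences rest on 2 arrays a day. Over all 83 members, 12 (14.5%) went from above to below 0 from day 1 to day 6 and none the reverse. The shares of all features were 7.95% and 7.66%. From day 1 to day 3, 5 members (6.02%) went each way, beside 7.26% and 6.93% of features. From day 3 to day 6, 6 members (7.23%) went from above to below and 3 (3.61%) the reverse, beside 6.04% and 7.42%.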

How the results depend on the processing

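Of the 38 named members, 20 had a mean over days with the same sign under all alternatives. The shared change called 0 members under every setting but 1: without day 1 it called 2, RPL17 and EEF1B2, so that its range with arrays or days left out was 0 to 2. The fits of days 1 and 3 called none under the settings run. The day 6 fit called 1 member, and 0 after scaling, 0 with the replicate block (dye orientation, the replicate letter) and 0 to 2 with arrays or days left out (RPL17 and RPL19 without replicate A of day 6). The contrast of day 6 with day 1 called 1, again 1 with the replicate block, 2 with separate probes, and 0 to 3 with arrays left out (RPL17, EEF1B2 and RPL19 without replicate A of day 6). Replicate letters mark dye orientation and pair no samples.

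Members at least 2 units from 0 on both arrays numbered 0 on day 1, against 2 after scaling, 1 with the median of probes, 2 at 1.5 units, 6 at 1 unit and 2 to 5 on a single array. On day 3 they numbered 0, against 4 at 1.5 units, 7 at 1 unit and 5 to 9 on a single array. On day 6 they numbered 3, against 1 with neighbouring probes subtracted, 7 at 1.5 units, 13 at 1 unit and 8 to 16 on a single array. Members with all day differences of at least 2 units numbered 5, against 11 at 1 unit and 7 to 15 with an array left out. Members of the same sign on every array numbered 2, against 4 to 18 with fewer arrays, which the rule itself makes easier to meet.

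With arrays or days left out the class medians ran from -0.19 to 0.19 (large subunit) and from -0.21 to 0.18 (small subunit), and those of day 6 minus day 1 from -0.87 to -0.38 (large subunit) and from -0.63 to -0.25 (factors). With neighbouring probes subtracted, the median of the means over days was -0.18 for the small subunit. The median of day 6 minus day 1 was then -0.27 for the factors. Without the subtraction, the difference over the factors had a median of -0.63 and a mean of -0.45. Chosen after seeing the data, leaving out an array of day 1 or day 6 gave 16 to 21 members above 0 on day 1 and below on day 6 and 4 to 6 the reverse, beside 12.7% to 15% and 12.4% to 15.3% of all features. Except where stated, the cause was not tested. Agreement between dye orientations, with correlations from 0.09 to 0.15 over members, limits all of these.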
